A study of Mus musculus with 13 samples.

Results

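The microRNA (miRNA) content of plasma exosomes was described in 5 sham-operated mice, out of the 13 samples of a study of polymicrobial sepsis. The 5 are the samples whose titles name the sham group. They are male C57BL/6J mice of WT genotype, and their plasma exosomes were taken 24 hours post-surgery. The labels call their disease state control and give neither age nor the details of the sham operation. The other 8 samples come from mice with cecal ligation and puncture and enter no comparison here. Each sample was read on all 68 miRNA probes of one panel, as fluorescence on a linear scale, and the values below are for the 68 probes in these 5 mice. Nothing in the labels says how the mice were housed or bled, or whether their samples were assayed together, so the spread given is that between 5 samples, and their number limits the precision of every value.

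Exosomes are small vesicles that cells release into blood, and the miRNAs they carry are short RNAs that guide Argonaute proteins to messenger RNAs. A miRNA recognises its targets mainly through the seed, the stretch near its 5′ end, so miRNAs of one seed share many targets. Blood cells, platelets, the vessel wall and the liver are the best known sources of circulating miRNAs, and some miRNAs are made almost only in one of these. Red cell precursors are rich in miR-451a, which is cut by Argonaute 2 instead of Dicer, and hepatocytes in miR-122-5p.

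The quantity used throughout is a probe's share, its raw signal in percent of the summed signal of the panel in that mouse. A share is one of signal on this panel and not of molecules, because how well each probe hybridizes, ligates and amplifies was not calibrated in the values used here. In pooled vesicles, fewer vesicles from a cell type and less of its miRNA per vesicle cannot be told apart. The panel is a chosen set, so a cell type can be scored only by the markers that it holds.

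The mature sequences below belong to the probes of highest mean share that were matched to an entry in the RefSeq table (GRCm38.p6), with the seed (bases 2 to 8) in capitals. No 2 of these 9 share a seed. They are mouse sequences, while the probes carry human names, and the probes' own sequences were not used here.
miR-16-5p: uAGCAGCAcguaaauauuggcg
miR-451a: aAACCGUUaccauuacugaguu
miR-223-3p: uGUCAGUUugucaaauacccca
miR-24-3p: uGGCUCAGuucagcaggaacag
miR-23a-3p: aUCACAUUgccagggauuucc
miR-21-5p: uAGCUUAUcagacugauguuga
miR-29a-3p: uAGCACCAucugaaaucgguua
miR-22-3p: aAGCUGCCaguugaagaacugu
miR-17-5p: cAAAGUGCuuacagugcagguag

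The next set shares a seed with a leading probe. Ratios within these families are given further on, none of them with miR-93-5p.
miR-15a-5p: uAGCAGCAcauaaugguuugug
miR-15b-5p: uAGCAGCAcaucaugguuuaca
miR-20a-5p: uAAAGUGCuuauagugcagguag
miR-20b-5p: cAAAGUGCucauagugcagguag
miR-93-5p: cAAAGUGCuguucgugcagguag
miR-29c-3p: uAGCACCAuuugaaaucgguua

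In GRCm38.p6 the mature miR-16-5p lies at chr3:69009918-69009939 on the plus strand, in Mir16-2, and at chr14:61631936-61631957 on the minus strand, in Mir16-1. miR-451a lies at chr11:78073186-78073207 on the plus strand, in Mir451a. miR-223-3p lies at chrX:96242884-96242905 on the plus strand, in Mir223. Of the 68 probes, 54 had a table entry that was used here, 48 by the same name and 6 where only the mouse letter or arm suffix differs (such as miR-21-5p with miR-21a-5p). The 14 with no entry used here were miR-486-5p, miR-150-5p, miR-30b-5p, miR-320a, miR-145-5p, miR-122-5p, miR-185-5p, miR-320d, miR-151a-5p, miR-422a, miR-885-5p, miR-375, miR-523-5p and miR-1246. Some entries were left out of the matching, so a place among the 14 does not mean that the mouse reference lacks the miRNA.

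The signal recovered differed between mice, and 1 mouse had probes at 0. The summed raw signal was 10598, 23558, 25421, 13656 and 45121 units in sham mice 1 to 5, a 4.26-fold span. Sham mouse 5 had the highest raw signal for 60 of the 68 probes, and the lowest was in sham mouse 1 for 36 probes and in sham mouse 4 for 31. All 68 probes were above 0 in the other 4 mice, whereas sham mouse 4 had 60 above 0, 7 at 0 and 1 empty cell, that of miR-122-5p.

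A few probes held most of the signal. The brightest probe took 20.8%, 17.4%, 15.9%, 23.1% and 12.5% of the panel in mice 1 to 5, and the 10 brightest of each mouse took 63.4% ± 2.97 (SD, n = 5), with a range of 59.4% to 66.8%. Between 23 and 28 probes were needed to reach 90% of the signal. The 34 dimmest probes of a mouse together held 3.62% ± 0.60 (SD, n = 5). The effective number of probes, which would be 68 if all were equally bright, was 21.6, 24.2, 25.9, 19.3 and 29.2 in mice 1 to 5. It was lowest in sham mice 4 and 1, the samples of lowest summed signal, and highest in sham mouse 5, the sample of highest summed signal.

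**Figure D1:**
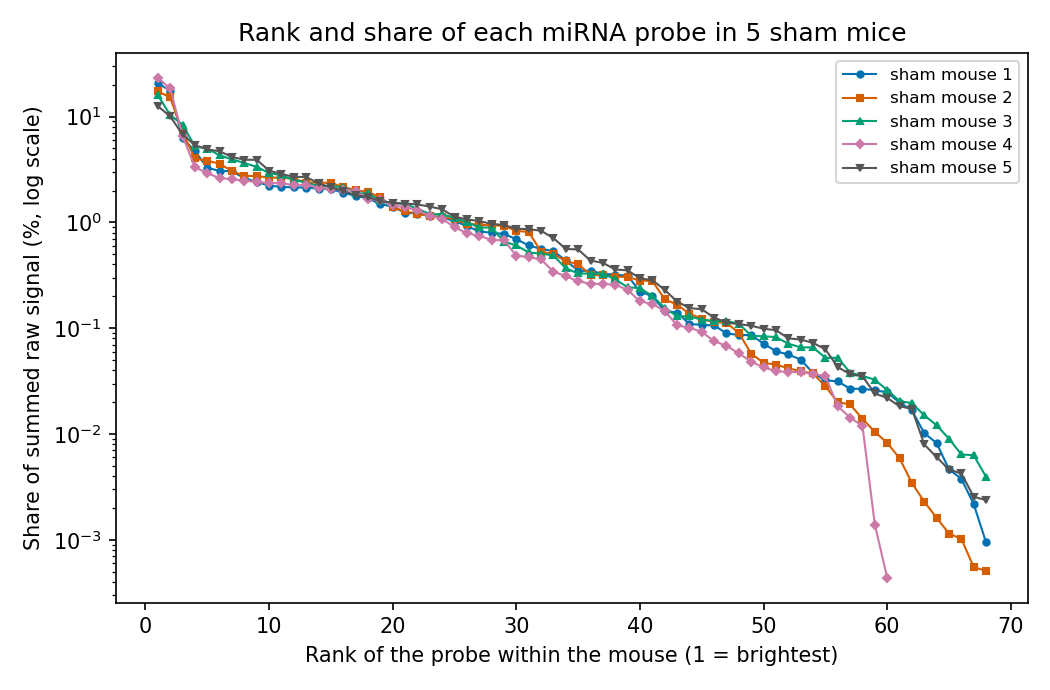
Share of the summed raw signal (percent, log axis) against the rank of the probe in each mouse, 1 line per sham mouse. All 5 curves have a steep head of 3 probes, a long shoulder near 1% and a tail in which the mice separate. The curve of sham mouse 4 ends at rank 60, since values of 0 have no place on a log axis.

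The dynamic range within a mouse was wide and was set mostly by the dim end. The brightest probe exceeded the dimmest probe above 0 by 14.43, 15.06, 11.98, 15.69 and 12.37 log2 units in mice 1 to 5. Over the probes above 0 in each mouse, the 90th percentile exceeded the 10th by 7.54 ± 1.08 log2 units (SD, n = 5). It was lowest in sham mouse 4, at 6.12, where this measure leaves out the probes at 0. Among the 43 probes at 10 or more raw units in every mouse, brightest over dimmest spanned 7.47 ± 0.32 log2 units (SD, n = 5).

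The erythroid list led the panel in every mouse, with 3 of its 7 miRNAs present. The 3 erythroid probes present, miR-16-5p, miR-451a and miR-486-5p, took the first 3 ranks in all 5 mice and summed to 44.4%, 39.6%, 34.6%, 48.2% and 29.4% of the signal in mice 1 to 5. The mean was 39.2% ± 7.51 (SD, n = 5). miR-16-5p, which is not confined to red cells, gave 42.2% of that mean. By mean share the order was miR-16-5p, miR-451a and miR-486-5p, and the order of the first pair was reversed in 2 mice.

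miR-16-5p, which represses BCL2 and cyclin messages and is abundant in red cells as well as in many other cells, had a raw signal of 2202, 3567, 4045, 2522 and 5657 units in mice 1 to 5. These were 20.8%, 15.1%, 15.9%, 18.5% and 12.5% of the panel, and the mean was 16.6% ± 3.17 (SD, n = 5). Its share was highest in sham mouse 1 and lowest in sham mouse 5, which had the highest raw signal.

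miR-451a, the Dicer-independent miRNA of maturing red cells, had 1845, 4092, 2629, 3161 and 4535 units in mice 1 to 5. Its share was 17.4%, 17.4%, 10.3%, 23.1% and 10.1%, with a mean of 15.7% ± 5.52 (SD, n = 5). It was the brightest probe in sham mice 2 and 4 and second to miR-16-5p in the other 3, so the means of this pair do not differ beyond their spread.

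miR-486-5p, encoded in the ankyrin 1 gene and expressed in red cell precursors and muscle, had 662, 1671, 2128, 895 and 3055 units. It held 6.25%, 7.09%, 8.37%, 6.55% and 6.77% of the panel and the third rank in every mouse, with a mean of 7.01% ± 0.82 (SD, n = 5). It lay below miR-451a and above the probe of next highest mean share in 5 of 5 mice, and these 2 steps were the only ones among 66 neighbouring pairs in the order of mean share that held in all mice.

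The erythroid share was not constant, and the summed signal differed beside it. In the order of rising summed signal (mice 1, 4, 2, 3 and 5) the erythroid sum was 44.4%, 48.2%, 39.6%, 34.6% and 29.4%. With 5 mice no correlation is given, and the part of the signal level in these shares was not tested. The raw signals of miR-16-5p and miR-451a spanned 2.57-fold and 2.46-fold over the mice, less than the 4.26-fold of the summed signal, while miR-486-5p spanned 4.61-fold. Of the 60 probes above 0 in all mice, 14 spanned less than the summed signal and 46 spanned more, with a median of 6.44-fold. miR-451a over miR-23a-3p, a usual index of red cell RNA in plasma, was 5.71, 4.33, 2.41, 8.82 and 2.14 in mice 1 to 5. This index was highest in sham mice 4 and 1, which also had the highest erythroid sums, but miR-451a enters both, so they are not separate measures.

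**Figure D2:**
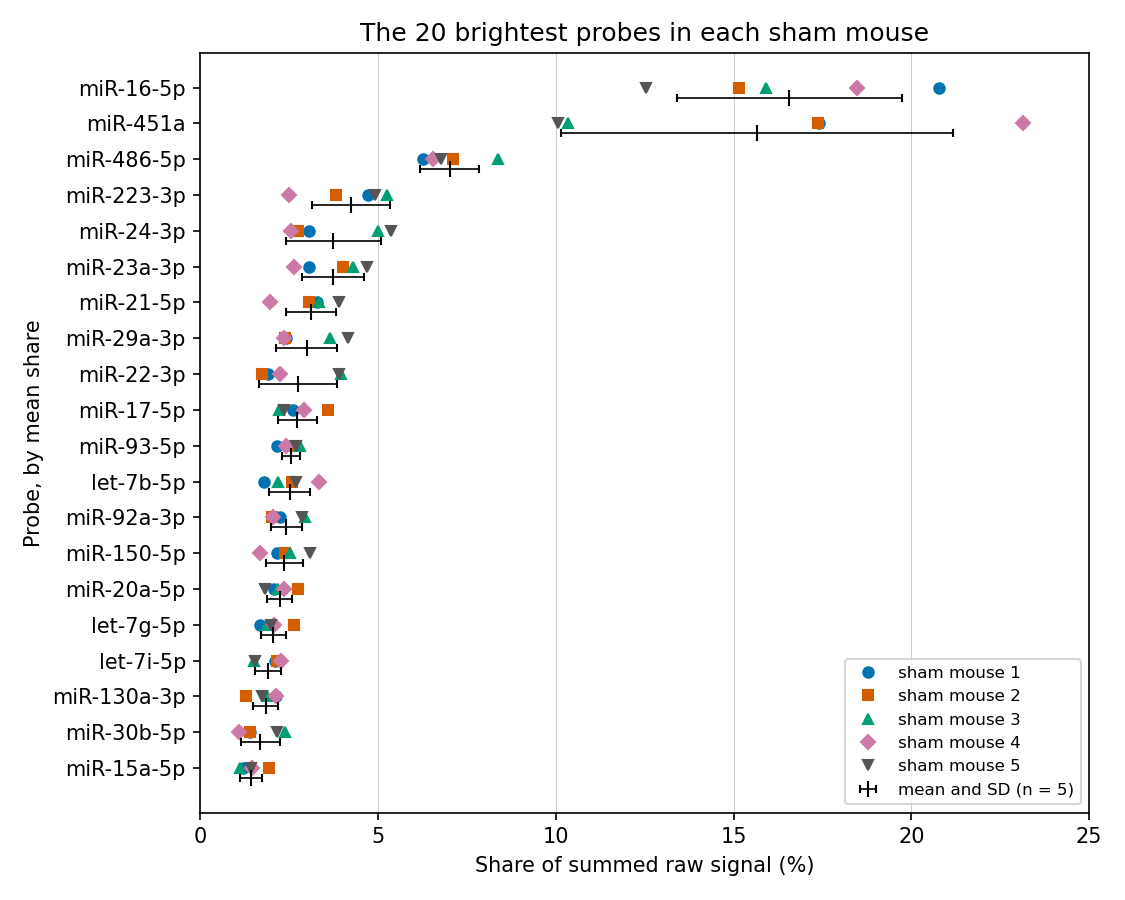
Share of the summed raw signal (percent, linear axis) for the 20 probes of highest mean share. Each mark is 1 sham mouse, and the black bar under it is the mean with its SD (n = 5). miR-16-5p and miR-451a stand apart near 16% on average and are the most widely spread, miR-486-5p follows at 7.01%, and the other 17 lie at means of 4.23% and below.

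The myeloid list came next but rested on 1 probe. miR-223-3p, a regulator of granulocyte maturation that is also plentiful in platelets, had 501, 901, 1330, 340 and 2209 units in mice 1 to 5. It held 4.72%, 3.82%, 5.23%, 2.49% and 4.90% of the panel (mean 4.23% ± 1.11, SD, n = 5) and ranked between 4 and 8. miR-142-3p, expressed throughout the haematopoietic lineage, was far dimmer at 11.6, 32.2, 18.1, 9.32 and 44.6 units and 0.0970% ± 0.03 (SD, n = 5). It stood at place 47 of the 68 by mean share, so the list's summed 4.33% was nearly all miR-223-3p. The ratio of miR-223-3p to miR-142-3p was between 27.9 and 73.3 in the 5 mice.

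The lymphoid list had all 4 of its miRNAs on the panel and summed to 4.04% ± 0.99 (SD, n = 5). miR-150-5p, which restrains MYB in mature lymphocytes, made up most of it with 227, 560, 639, 227 and 1391 units and a share of 2.36% ± 0.52 (SD, n = 5). miR-342-3p followed at 1.03% ± 0.33 (SD, n = 5). miR-181a-5p, which tunes T cell receptor signalling, and miR-181b-5p, of the same seed, were at 0.381% ± 0.11 and 0.272% ± 0.10 (SD, n = 5 each). Relative to the geometric mean of the 60 probes above 0 in all mice, miR-150-5p had a between-mouse SD of 0.15 log2 units, against a median of 0.46 over those probes.

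Of the inflammation-linked list, 5 of 6 miRNAs were on the panel and summed to 3.88% ± 1.04 (SD, n = 5). miR-21-5p, an inhibitor of PDCD4 found in most cell types, gave 80.1% of that sum, with 348, 718, 850, 269 and 1760 units in mice 1 to 5. Its share was 3.11% ± 0.71 (SD, n = 5), and its rank lay between 5 and 9 in 4 mice and at 17 in sham mouse 4. The other members were dimmer, though miR-146a-5p was above the median mean share of 0.451% over all 68 probes. miR-146a-5p, a brake on Toll-like receptor signalling, stood at 0.591% ± 0.31 (SD, n = 5), and miR-132-3p at 0.120% ± 0.09. miR-125a-5p was at 0.0330% ± 0.01 and miR-155-5p, induced in activated macrophages and lymphocytes, at 0.0286% ± 0.009 (SD, n = 5 each).

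The endothelial list made up a small part, and its summed share was even. miR-126-3p, which lies in an intron of Egfl7 and supports VEGF signalling, had 97.8, 229, 256, 101.7 and 464 units in mice 1 to 5 and a share of 0.923%, 0.970%, 1.01%, 0.745% and 1.03%. Its rank was 26 in 3 mice and 27 in 2, and its SD of 0.11 log2 units relative to the panel was the second smallest of the 60 probes, after 0.10 for miR-92a-3p. miR-221-3p, an inhibitor of KIT expression, was at 0.457% ± 0.14 (SD, n = 5) and less steady, with an SD of 0.51 log2 units and ranks of 30 to 37. Both together held 1.39% ± 0.16 (SD, n = 5), and the sum spanned 1.36-fold over the mice, the narrowest of the 9 lists above 0 in every mouse.

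The summed share of the liver list varied more than that of the endothelial list. Relative to the panel, miR-192-5p and miR-885-5p had SDs of 0.53 and 0.57 log2 units, against 0.11 for miR-126-3p and 0.51 for miR-221-3p. miR-122-5p, the hepatocyte miRNA, had 33.3, 219, 83.2 and 481 units in sham mice 1, 2, 3 and 5 and no value in sham mouse 4, or 0.660% ± 0.40 of the panel (SD, n = 4). It ranked 26 in sham mouse 5 and 29 in sham mouse 2, but 37 and 39 in sham mice 3 and 1. miR-192-5p, expressed in hepatocytes and gut lining, was at 34.8, 66.5, 129, 31.4 and 376 units, a share of 0.436% ± 0.25 (SD, n = 5). miR-885-5p was at 0.0715% ± 0.03 (SD, n = 5), and what its probe reads in mouse plasma was not established. With it, the list summed to 0.732%, 1.26%, 0.950%, 0.267% and 1.97% in mice 1 to 5. The value for sham mouse 4 lacks miR-122-5p, so the list's 7.38-fold span includes that gap. Among probes matched by the same name to an entry used here, which leaves miR-192-5p as the only member, the list was at 0.547%, against 1.04% with all 3.

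Epithelial miRNAs were minor, with none of the 5 present among the upper 34 probes by mean share. They summed to 0.645% ± 0.30 (SD, n = 5). miR-205-5p of stratified epithelium gave 69.1% of the sum, with 36.8, 71.6, 154, 35.7 and 321 units in mice 1 to 5. miR-203a-3p, which limits p63 in differentiating keratinocytes, was at 0.0902% ± 0.03 (SD, n = 5), and miR-375 of endocrine cells at 0.0608% ± 0.06, or 0.0373% without sham mouse 5. miR-200a-3p and miR-429, which repress the ZEB transcription factors, were at 0.0423% ± 0.03 and 0.00593% ± 0.006 (SD, n = 5 each), and miR-429 was at 0.00366% without sham mouse 3. miR-200a-3p had 2.84, 8.79, 16.7, 0.19 and 36.2 units, so that sham mouse 4 lay far below the other 4.

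The remaining lists held little. miR-145-5p, which promotes the contractile state of smooth muscle, was the only mesenchymal probe and had 84.5, 195, 385, 35.2 and 509 units, a share of 0.905% ± 0.46 (SD, n = 5). The Hox cluster probes miR-10a-5p and miR-196a-5p summed to 0.117% ± 0.04 (SD, n = 5). The neuronal miR-129-5p was at 0.00595% ± 0.005 (SD, n = 5) with a value of 0 in sham mouse 4. No probe of the muscle list was on the panel. The 10 lists with a probe took the same first place and the same last 2 places in all 5 mice (erythroid, then Hox cluster and neuronal), and the myeloid, lymphoid and inflammation-linked lists took places 2 to 4 in changing order. The median mean share of the list members ranged from 15.7% for the erythroid to 0.00595% for the neuronal list, against 0.451% over all 68 probes.

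**Figure D3:**
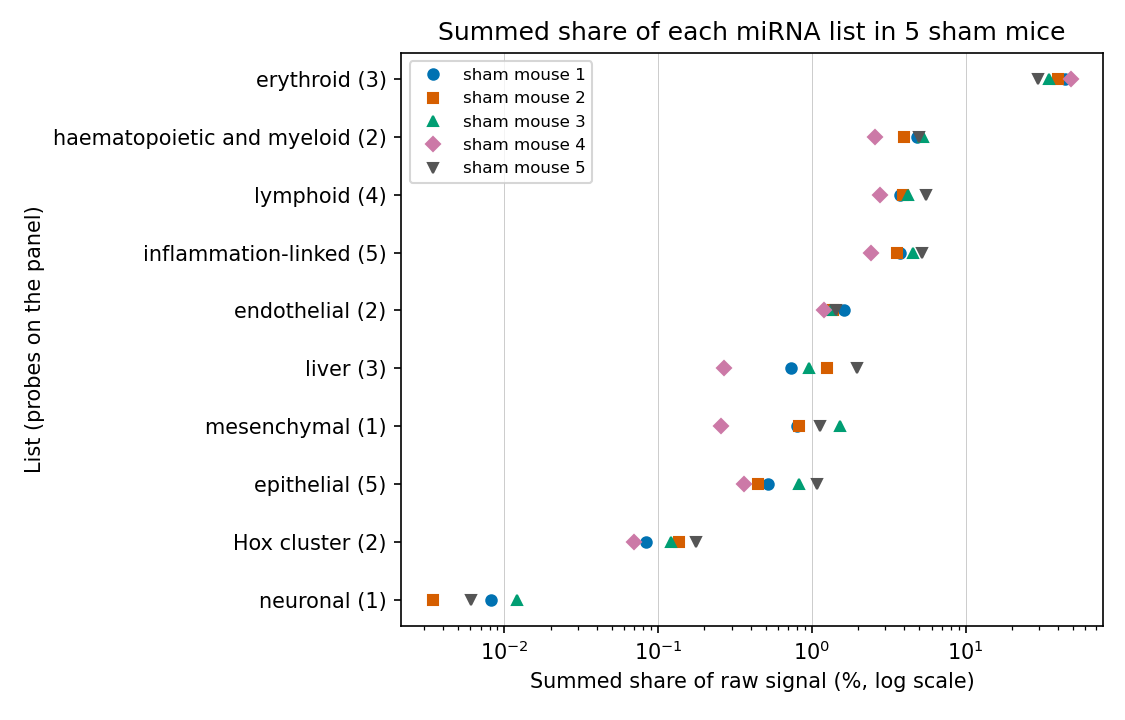
Summed share of raw signal (percent, log axis) of each list that has a probe on the panel, 1 mark per sham mouse, with the number of probes in brackets. The erythroid list lies at 29.4% to 48.2%, the 3 other leukocyte and inflammation lists between 2.41% and 5.50%, and the Hox cluster and neuronal lists at the bottom. The neuronal value of sham mouse 4 is 0 and is not drawn.

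The 40 probes outside the lists held 44.4% ± 3.80 (SD, n = 5) of the signal. Broadly expressed miRNAs led them, and 5 of these were among the 10 probes of highest mean share. miR-24-3p (3.74% ± 1.33) and miR-23a-3p (3.74% ± 0.87, SD, n = 5 each) have genes side by side on chromosome 8, miR-24-3p has another on chromosome 13, and either was the brighter one depending on the mouse. miR-29a-3p, a repressor of collagens, held 2.98% ± 0.85, miR-22-3p 2.75% ± 1.09 and miR-17-5p, an inhibitor of BIM, 2.73% ± 0.55 (SD, n = 5 each). Just below the first 10 were miR-93-5p at 2.54% ± 0.25, let-7b-5p at 2.51% ± 0.58 and miR-92a-3p at 2.42% ± 0.45 (SD, n = 5 each).

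Among the 54 matched probes, 5 seeds were shared by 2 or more probes, and these 5 families (17 probes) held 40.9% of the mean signal. The family of miR-16-5p, miR-15a-5p and miR-15b-5p, of seed AGCAGCA, held 18.9% ± 3.11 (SD, n = 5), of which miR-16-5p gave 87.4%. The family of seed AAAGUGC (miR-17-5p, miR-93-5p, miR-20a-5p and miR-20b-5p) held 8.70% ± 1.65 (SD, n = 5) and was more evenly filled, since its brightest member gave 31.4%. The let-7 probes held 7.37% ± 1.16 and the miR-29 probes 5.30% ± 1.23 (SD, n = 5 each). The miR-181 probes held 0.654% ± 0.20 (SD, n = 5). miR-16-5p, miR-29a-3p and miR-181a-5p were the brightest of their families in 5 of 5 mice, and miR-17-5p and let-7b-5p in 3 of 5.

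Probes whose genes lie within 10 kb on one strand did not always have like signals. miR-24-3p and miR-23a-3p had the same mean share of 3.74%, and miR-17-5p, miR-92a-3p and miR-20a-5p of the cluster on chromosome 14 lay within 1.22-fold. By contrast miR-16-5p exceeded its chromosome 14 neighbour miR-15a-5p by 11.7-fold, and let-7e-5p exceeded miR-125a-5p by 6.33-fold. miR-16-2-3p, cut from the other arm of the Mir16-2 hairpin, was under 10 units in every mouse. Several of these miRNAs have a second gene elsewhere, and the probes' efficiencies differ by an unknown amount, so these ratios compare signals only.

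The base composition of the mature sequences was set beside the order of brightness. The median GC content was 40.9% for the 17 matched probes of places 1 to 20, 45.8% for the 21 of places 21 to 48 and 41.9% for the 16 of places 49 to 68. Over the 54 matched probes, Spearman's rho with mean share was -0.03 for GC content and 0.05 for length, as a description across probes that share the same libraries.

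The order of the probes was largely kept between mice. Spearman's rho over probes was between 0.938 and 0.979 for the 10 pairs of mice. The 3 lowest of these values (0.938 to 0.955) all involved sham mouse 4, but its rho with sham mouse 2 was 0.975. Of the sum of squares of log2 signal over 60 probes, 85.9% lay between probes, 9.40% between mice and 4.68% was left over. The part between mice was 4.70% without sham mouse 5, and the part left over was 3.07% without sham mouse 4. Of 2211 pairs of probes, 1852 (83.8%) stood in the same order in all 5 mice, with ties counted as not kept. That share was 27.6% for pairs with mean shares under 2-fold apart, 84.9% for pairs 2- to 4-fold apart and 99.0% for pairs over 4-fold apart. The pairs were sorted by mean shares of these same 5 mice, so a rise of this kind was largely fixed in advance. No test between single probes is given, because an exact two-sided sign-flip test over 5 mice cannot go below p = 0.0625.

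Few probes held a fixed rank. Rank ranges over the 5 mice had a median of 8 places among the 67 probes with all values; 7 probes moved by at most 2 places, and 16 moved by more than 10. miR-486-5p held rank 3 in every mouse. miR-125a-5p was at rank 56 in every mouse, but sham mouse 4 lacks miR-122-5p, and over the 67 probes with all values it was at 55 in 4 mice and 56 in sham mouse 4. miR-16-5p, miR-451a and miR-126-3p moved by 1 place. The top 10 of all 5 mice shared 6 probes (miR-16-5p, miR-451a, miR-486-5p, miR-223-3p, miR-24-3p and miR-23a-3p), while 15 probes were in the top 10 of at least 1 mouse. The top 20 of all mice shared 16 probes, out of 25 that entered any of them.

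Spread and brightness went together only in part. The median SD relative to the panel was 0.29 log2 units for the 10 brightest probes by mean share and 0.40 for places 11 to 30. It was 0.52 and 0.57 for places 31 to 50 and 51 to 68, where 19 of 20 and 11 of 18 probes had all 5 values above 0. miR-451a was an exception at the bright end, with 0.74 log2 units at place 2. By SD relative to the panel, the steadiest 5 were miR-92a-3p (0.10), miR-126-3p (0.11), miR-150-5p (0.15), miR-93-5p (0.19) and miR-23a-3p (0.20), in log2 units. The order depends on the measure. With the SD of the share in percent of its mean, miR-93-5p and miR-126-3p were at 9.95% and 12.1%. miR-92a-3p, miR-150-5p and miR-23a-3p were at 18.5%, 22.1% and 23.3%, above miR-486-5p (11.7%) and miR-320a (14.5%).

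**Figure D4:**
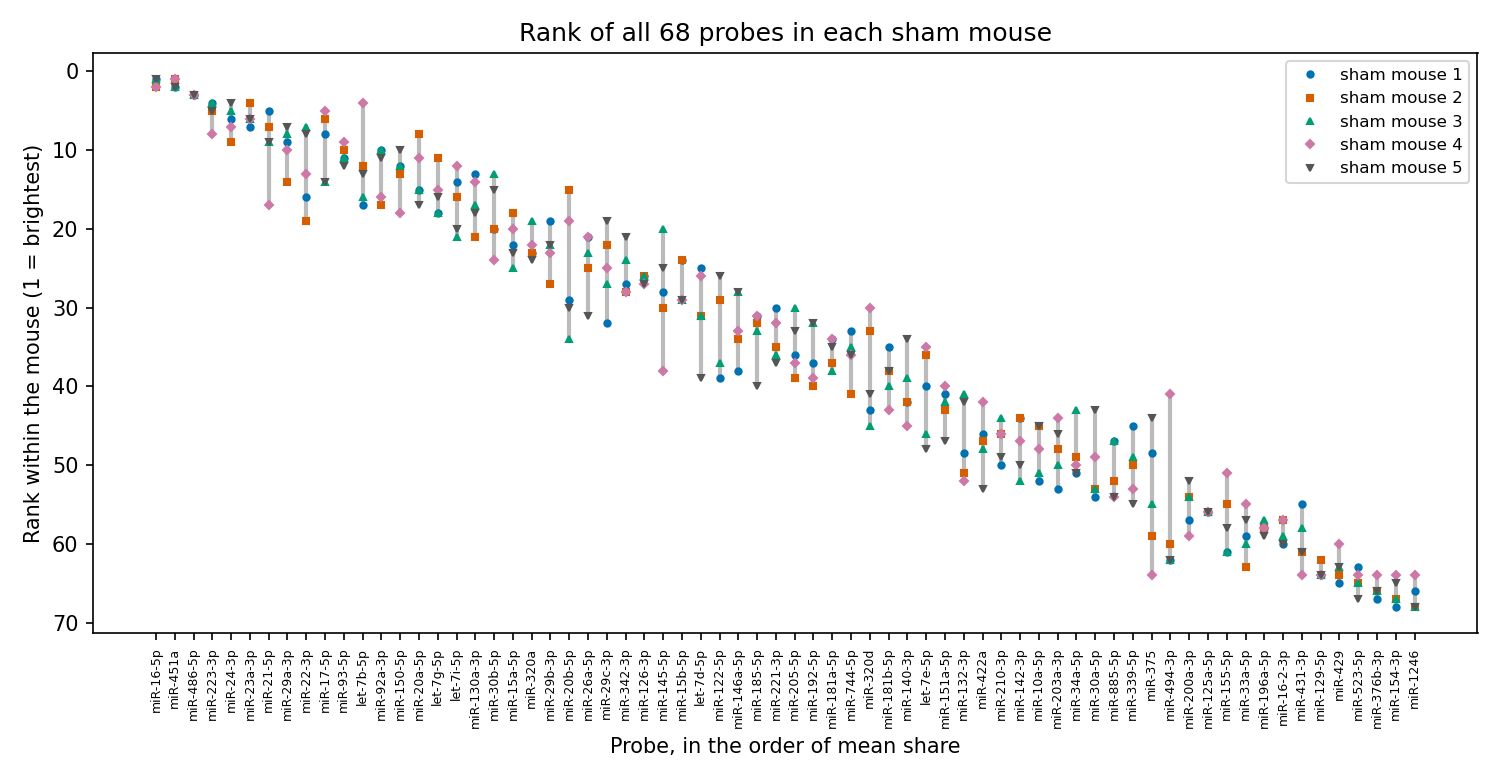
Rank of each of the 68 probes within each sham mouse (vertical axis, 1 at the top) in the order of mean share (horizontal axis); grey bars join the best and the worst rank. Ranks are tight for the first 3 probes and for miR-126-3p and miR-125a-5p, and widest for miR-494-3p (41 to 62) and miR-375 (44 to 64). Values of 0 in sham mouse 4 share rank 64.

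The widest rank ranges belonged to 5 probes. miR-494-3p, of the imprinted Dlk1-Dio3 region on chromosome 12, had 1.77, 1.94, 4.97, 23.2 and 7.79 units in mice 1 to 5, so sham mouse 4 had the highest signal of a probe that was near the bottom elsewhere. The other 3 probes with genes on chromosome 12 in that region, miR-431-3p, miR-376b-3p and miR-154-3p, were at 0 in sham mouse 4. All 3 were under 10 units in every mouse, so these zeros are no contrast to miR-494-3p. miR-375 had 9.12, 2.47, 13.4, 0 and 69.9 units and moved over 20 places. miR-145-5p ranked 20 in sham mouse 3 and 38 in sham mouse 4.

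miR-20b-5p and miR-320d completed the 5, and their high mice were the same. miR-20b-5p had 82.4, 555, 93.8, 222 and 393 units, and ranked 15 and 19 in sham mice 2 and 4 but 29 to 34 in the other 3. miR-320d had 14.9, 118, 30.6, 66.3 and 128 units, and ranked 33 and 30 in sham mice 2 and 4 but 41 to 45 in the other 3. For miR-320d no mouse entry was used here, so the mouse sequence that its probe reads was not established. Sham mouse 2 had a middle summed signal and sham mouse 4 a low one.

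Ratios to a related probe give the same pattern in another form. They were chosen with the ranks of miR-20b-5p and miR-320d in view and are no separate evidence of it. The ratio of miR-20b-5p to its seed mate miR-20a-5p was 0.378, 0.855, 0.169, 0.696 and 0.483 in mice 1 to 5. The ratio of miR-320d to miR-320a was 0.122, 0.436, 0.0746, 0.371 and 0.214. Both were highest in sham mouse 2, then sham mouse 4, and lowest in sham mouse 3, with spans of 5.06-fold and 5.85-fold. The ratio of miR-451a to miR-16-5p, at 0.838, 1.15, 0.650, 1.25 and 0.802, was above 1 in sham mice 2 and 4 only. Sham mice 2 and 4 were the highest pair in 6 of 16 ratios computed, several of which share a probe. Among the 6 was miR-29c-3p over miR-29a-3p, where sham mouse 4 (0.3827) barely exceeded sham mouse 5 (0.3823). Ratios between probes of one cluster were narrow or wide. Their spans were 1.29-fold for miR-17-5p over miR-20a-5p, 1.70-fold for miR-24-3p over miR-23a-3p and 2.19-fold for miR-15a-5p over miR-16-5p. They were 2.85-fold for miR-181b-5p over miR-181a-5p and 3.38-fold for miR-29c-3p over miR-29b-3p.

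**Figure D5:**
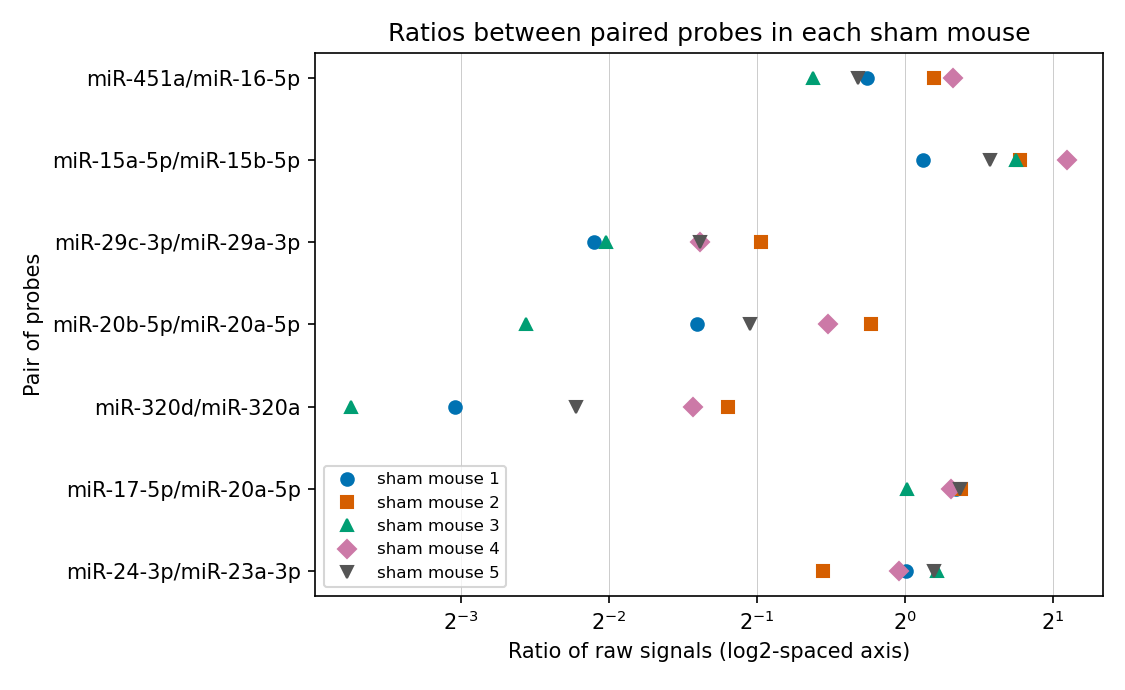
Ratio of raw signals for 7 pairs of probes (log2-spaced axis), 1 mark per sham mouse. In the upper 5 pairs sham mice 2 and 4 have the highest ratios, which span up to 5.85-fold over the mice. For miR-29c-3p over miR-29a-3p, however, sham mouse 4 (0.3827) and sham mouse 5 (0.3823) are nearly level. In the lower 2 pairs sham mice 2 and 4 are not the highest pair and the ratios span 1.29-fold and 1.70-fold. Both lower pairs come from shared clusters, other pairs of which span up to 3.38-fold. The 7 pairs are a choice from the 16 ratios computed. miR-451a over miR-23a-3p, not drawn, spans 4.12-fold without sham mice 2 and 4 as its highest pair.

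The dimmest 5 probes by mean share were miR-429, miR-523-5p, miR-376b-3p, miR-154-3p and miR-1246, each at 0.00593% or less. Their raw signals were under 4 units in every mouse, where the panel holds values of 0 and no level of background is given, so they are read as dim and not as present or absent. In all, 8 of 67 probes were under 10 units in all 5 mice.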

How the data were processed

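Plasma exosomal RNA of 5 sham mice was analysed. Ultracentrifugation yielded the exosomes and a column kit the RNA, and miRNAs on Fireplex particles received adapters before RT-PCR labelling with biotin, per the labels' protocols. The authors' deposited raw table holds intensity on a linear scale, not scaled between samples. For background subtraction, instrument and software, the sources used here say nothing. Their second deposited table holds intensity in which each sham column is its raw column multiplied by a constant (0.977 to 4.31).

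Shares were raw signal over the sum of each mouse's non-empty probes. Ranks ran within each mouse, with ties averaged. The empty cell stayed empty, so sham mouse 4 was ranked over 67 probes, and zeros were kept. Levels relative to the panel were log2 signal minus the mean log2 of the 60 probes above 0 in all 5 mice. The effective number is the exponential of the Shannon entropy of the shares. No groups were tested. Lists were disjoint, with 28 of their 61 miRNAs on the panel. Named probes were the 10 of highest and 5 of lowest mean share, the 5 of smallest and of largest rank range, all list members, and seed or cluster mates. Outside that rule, miR-30a-5p, miR-320a and miR-431-3p were picked with their values in view. The members and lists were chosen with earlier results of these data known. Functions were tested on simulated data. Python 3.11.15 with numpy 2.4.6, pandas 2.3.3 and matplotlib 3.10.9 was used.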

Additional observations from a re-analysis of the deposited data

Results flagged for a closer look

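Of 84 probe shares, list sums and per-mouse measures with a value in all 5 mice, 2 had a single mouse far from the others, where chance alone gives about 1 in 20. The share of miR-494-3p was 0.170% in sham mouse 4, against 0.00823% to 0.0196% in the other 4 sham mice, and the gap was 93.0% of the whole range. Sham mouse 4 also had 7 probes at 0 and 1 empty cell, and their part in this value was not tested. The share of miR-30a-5p was 0.178% in sham mouse 5, the mouse of highest summed signal, against 0.0377% to 0.0659% in the other 4 sham mice.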

How the results depend on the processing

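Of 1054 values recomputed under the alternatives, 999 moved by less than the spread between mice (or within 1.5-fold for values with no such spread). Much of that count was fixed in advance, so it is no measure of stability. Leaving out 1 mouse cannot move a mean share by as much as its SD. The authors' constant factor per mouse leaves shares and ranks unchanged apart from rounding. Limiting the panel to probes matched by the same name to an entry used here, which drops miR-486-5p, miR-150-5p, miR-21-5p, miR-126-3p and others, moved the share of the 10 brightest to 71.9%, the brightest to 22.1% and the effective number to 17.4. It moved the lymphoid, inflammation-linked and endothelial sums to 2.10%, 0.971% and 0.564%. With only probes at 10 or more units in all mice, the dynamic range was 7.47 (brightest over dimmest) and 3.88 log2 units (percentiles), and the sum of squares between mice 18.8%. With the authors' values that last share was 0.606%, since their factor removes most of the level. Leaving out each mouse gave 4.70% (without sham mouse 5) to 11.9% between mice and 3.07% (without sham mouse 4) to 5.29% left over. The erythroid sum ran from 37.0% to 41.7%, and pairs in one order from 84.6% to 87.0%. A pair in one order in all 5 mice keeps it in fewer mice, so the range for pairs does not show stability. Without sham mouse 3, miR-451a stood above miR-16-5p, and the mean shares of miR-429 and miR-154-3p were 0.00366% and 0.00153%. Without sham mouse 4 miR-494-3p was at 0.0154%, and without sham mouse 5 miR-375 at 0.0373%. Ranking over the 67 probes with all values was an alternative chosen after seeing the data. It again gave 7 probes that moved by at most 2 places and 16 by more than 10, but not all the same ones. miR-376b-3p replaced miR-129-5p among the 7, and miR-146a-5p replaced miR-422a among the 16. No paired analysis was possible because only 1 group enters, so replicate numbers pair no samples across groups. Signal over background, which is not given, limits the dim probes.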
